A study of Mus musculus with 8 samples.

Results

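Piezo2, Ldlrad4, Aldh7a1, Isoc1 and Dctn4 are 5 of the 18833 genes measured here in mature mouse oligodendrocytes, and all 5 lie within 10 Mb of Csf1r on mouse chromosome 18. Csf1r encodes the receptor for CSF1 that microglia need to survive, and the KO mice of this study lack the Fire enhancer, a stretch of intronic sequence that drives Csf1r in microglia. The annotation places 111 genes of the table in this window, Csf1r included, and 61 of them had enough reads to be tested, these 5 among them. The 5 genes coincide with the 5 of those 61 whose unadjusted p lay under 0.05 (limma) between genotypes outside the cluster Oligo1, so that KO against WT chose them and their genotype values are described below without a test.

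Hippocampus and cortex of 4 female mice were dissociated and sequenced as single cells with 10x Genomics chemistry, and 12581 cells of 8 libraries were kept as oligodendrocytes. Besides both hippocampi, the study's methods describe collecting the rest of the left hemisphere, with olfactory bulbs and cerebellum removed. The labels call the second tissue cortex, so cortex below may include other parts of the hemisphere. Each mouse gave 1 library of hippocampus and 1 of cortex. WT mice 1 and 4 were wild-type for the Fire enhancer, and KO mice 3 and 6 were homozygous for its deletion (FIRE Δ/Δ) and lack microglia. Each WT mouse was matched to a KO mouse of its age, which was 1 month and 18 days for mice 1 and 3, and 1 month and 16 days for mice 4 and 6. The deletion is in the germ line, so that every cell of a KO mouse carries it, and the study's methods give the mice a mixed CBA and C57Bl6J background. A KO mouse therefore carries the deletion together with whichever alleles of chromosome 18 travelled with it, and in this design the deletion, the absence of microglia and such linked alleles cannot be told apart.

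Mature oligodendrocytes wrap axons in myelin, and they take up several transcriptional states that differ in lipid, stress and immune genes. The authors split these cells into 4 clusters, Oligo1 to Oligo4. Oligo1, whose leading genes are C4b, a complement component, and Serpina3n, a protease inhibitor, is nearly absent from WT mice. It held 859 of 2784 and 147 of 1074 cells in the hippocampus and cortex of KO mouse 3, 448 of 1934 and 98 of 904 cells in those of KO mouse 6, 6 of 1047 cells in the hippocampus of WT mouse 4, and 0 cells in the other WT libraries. A gene with a higher mean in KO mice can thus be higher because more cells are in Oligo1 or because cells of some or all clusters hold more of it. The mix of the other clusters can also differ. Each gene is given below over all cells and by cluster.

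The 5 genes lie on both sides of Csf1r, which spans chr18:61100598-61132149 on the plus strand (GRCm38, GENCODE M21). Aldh7a1 spans chr18:56509687-56572951 on the minus strand, 4.53 Mb below Csf1r, and encodes antiquitin, an aldehyde dehydrogenase of lysine breakdown. Isoc1 spans chr18:58659466-58680368 on the plus strand, 2.42 Mb below, and encodes a protein with an isochorismatase domain whose role in oligodendrocytes is not settled. Dctn4 spans chr18:60526185-60558766 on the plus strand, 0.542 Mb below, and encodes a subunit of dynactin, the cofactor that lets cytoplasmic dynein carry cargo along microtubules. Piezo2 spans chr18:63010213-63387183 on the minus strand, 1.88 Mb above, and encodes a mechanically gated cation channel best known from touch neurons. Ldlrad4 spans chr18:67933257-68268630 on the plus strand, 6.80 Mb above, and encodes a membrane protein that restrains TGF-beta signalling by binding SMAD proteins. Libraries were made from the 3' ends of transcripts, so the whole gene span, introns included, is not what was counted.

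Every level below is the mean over cells of log2(normalized UMI + 1), where a UMI is 1 counted molecule and normalized means divided by the cell's size factor. Libraries held 904 to 2784 cells and 12015360 to 27847948 UMIs, with 9377 to 13726 UMIs in the median cell. Csf1r had a UMI in 5.31% to 10.2% of cells in WT libraries and in at most 0.155% in KO libraries. In the cortex of KO mouse 6 it had a UMI in 0 of 904 cells, which allows a share of up to 0.332% (3 counts of the total). Cell barcodes found in more than 1 library numbered 21 and marked 42 cells.

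Over all oligodendrocytes, 0 of 9257 tested genes differed between genotypes at an adjusted p under 0.05 (limma on mouse means, Benjamini-Hochberg), a background of 0%, while 209 (2.26%) had an unadjusted p under 0.05, 1.34% being higher in KO and 0.918% lower. Outside Oligo1 the counts were 0 of 9232 tested genes, again 0%, with 133 at an unadjusted p under 0.05, a background of 1.44%. With the age shared by a WT and a KO mouse as a block, 0 genes passed in either comparison, and 970 and 692 had an unadjusted p under 0.05 (limma). edgeR on summed UMIs called 8 genes over all cells and 3 outside Oligo1, and limma on the 8 libraries with the mouse as a random block called 1 and 3. None of these calls was 1 of the 5 genes or another tested gene within 10 Mb of Csf1r, although 1 called gene, 9330117O12Rik, had no position in the annotation. With 2 mice a genotype, the values per library carry the description. The 4 KO libraries lay above all 4 WT libraries for 2.78% of tested genes and below them for 1.35%, or 4.13% in either direction, and of the 5 genes near Csf1r 3 lay above, 1 lay below and 1 overlapped. These shares stand side by side without a reading, since the same contrast chose the genes.

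**Figure D1:**
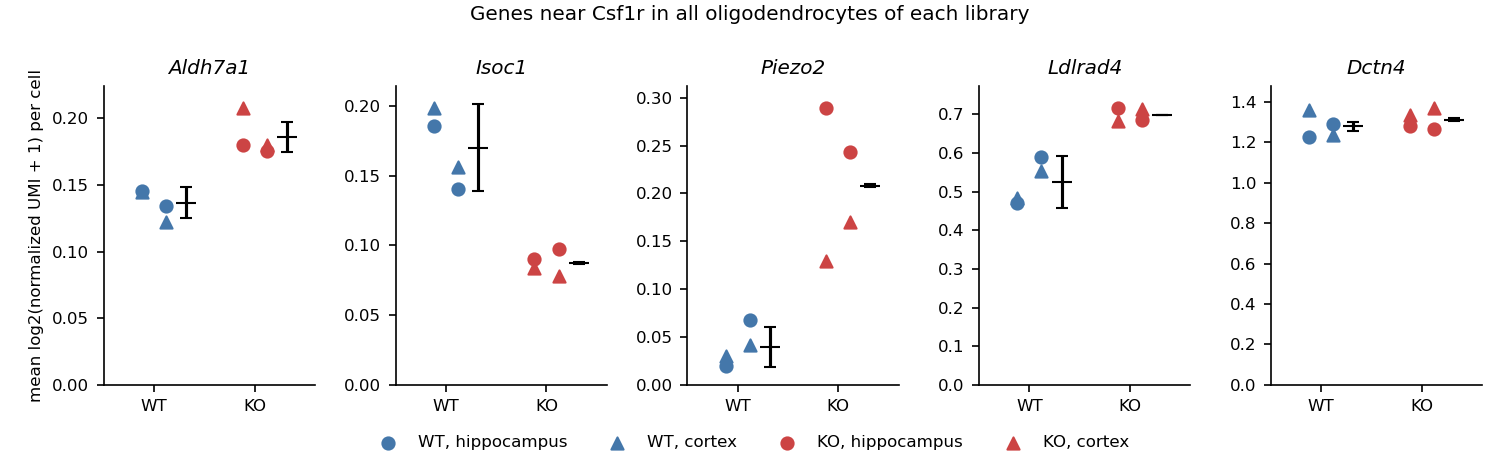
Mean log2(normalized UMI + 1) per cell of each gene in the 8 libraries, WT in blue and KO in red, circles for hippocampus and triangles for cortex, the 2 mice of a genotype side by side. The black bar is the mean ± SD of the 2 mouse means. KO libraries lie above all WT libraries for Aldh7a1, Piezo2 and Ldlrad4, lie below them for Isoc1, and overlap them for Dctn4.

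Isoc1 was the 1 gene of the set that was lower in KO mice. Its level was 0.19 in the hippocampus and 0.20 in the cortex of WT mouse 1, and 0.14 and 0.16 in those of WT mouse 4. In KO mouse 3 it was 0.090 and 0.084, and in KO mouse 6 it was 0.097 and 0.078. All KO libraries lay below all WT libraries, and the WT mice differed from each other more than the KO mice did. The mouse means were 0.17 ± 0.031 (SD, n = 2) in WT and 0.087 ± 0.00057 (SD, n = 2) in KO. The mean normalized UMI was 2.02 times as high in WT as in KO mice.

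Fewer KO cells held an Isoc1 UMI, and fewer held several. Cells with at least 1 UMI made up 17.5% to 24.5% of WT libraries and 10.1% to 11.5% of KO libraries, with an exact 95% binomial interval of 15.4% to 19.9% for the lowest WT and of 9.70% to 13.6% for the highest KO library. Cells with 3 or more UMIs made up 0.478% to 1.27% of WT libraries and 0% to 0.310% of KO libraries. With every cell thinned to 5000 UMIs, the shares were 7.90% to 11.1% in WT and 4.40% to 5.78% in KO, again without overlap. Such intervals cover counting error only. Other cell types were not analysed here, so no share from a cell type that lacks Isoc1 can be set beside these.

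In Oligo2, Oligo3 and Oligo4 the 4 KO libraries lay below the 4 WT libraries for Isoc1. In Oligo4 this rested on a narrow gap, since the lowest WT library was at 0.1063 and the highest KO library at 0.1061. By mean normalized UMI the Oligo4 libraries overlapped, at 0.0979 in the lowest WT and 0.0998 in the highest KO library. In Oligo2 the means over libraries were 0.14 ± 0.023 in WT and 0.067 ± 0.011 in KO (SD, n = 4 libraries), in Oligo3 0.18 ± 0.031 and 0.098 ± 0.0075, and in Oligo4 0.17 ± 0.050 and 0.068 ± 0.034. Oligo1 cells of KO mice, at 0.087 ± 0.0078, had the level of the other KO cells, from which they differed by -0.013 to 0.016 in the 4 libraries. Isoc1 thus differed between genotypes within clusters and not between Oligo1 and the rest. Within each of the 4 batches, which paired 1 WT and 1 KO library of one tissue and age, KO minus WT was -0.096, -0.11, -0.043 and -0.078.

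Aldh7a1 was higher in KO mice by a smaller amount, and also in each cluster. Its level in hippocampus and cortex was 0.15 and 0.15 in WT mouse 1 and 0.13 and 0.12 in WT mouse 4. In KO mouse 3 it was 0.18 and 0.21, and in KO mouse 6 it was 0.18 and 0.18. The genotypes did not overlap, and the cortex of KO mouse 3 stood above the other 3 KO libraries. The mouse means were 0.14 ± 0.012 (SD, n = 2) in WT and 0.19 ± 0.011 (SD, n = 2) in KO, and the mean normalized UMI was 1.37 times as high in KO mice. Cells with a UMI made up 15.4% to 18.9% of WT libraries and 20.1% to 27.1% of KO libraries, or 6.99% to 8.65% and 10.1% to 11.3% once thinned to 5000 UMIs.

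For Aldh7a1 KO minus WT was 0.034, 0.063, 0.041 and 0.058 in batches 3 to 6. In Oligo2 the library means were 0.17 ± 0.0059 in WT and 0.21 ± 0.026 in KO (SD, n = 4), and in Oligo3 0.13 ± 0.014 and 0.18 ± 0.012, without overlap in either cluster. The gap in Oligo2 was narrow, from 0.174 in the highest WT to 0.180 in the lowest KO library. Their mean normalized UMI overlapped, at 0.163 in the lowest KO and 0.172 in the highest WT library. KO minus WT in Oligo2 was 0.037, 0.070, 0.048 and 0.0098 in batches 3 to 6. In Oligo4, which held 38 to 149 cells in each WT library, they were 0.14 ± 0.046 and 0.16 ± 0.029 and overlapped. KO minus WT there was 0.040, 0.0037, 0.055 and 0.013 in batches 3 to 6, and in batch 4 the mean normalized UMI of KO was 0.979 times that of WT. The level in Oligo1, 0.19 ± 0.022, differed from that of the other KO cells by -0.019 to 0.019. Aldh7a1 and Isoc1 therefore shared a pattern in mean log2 value, opposite in sign. It was a step between genotypes in Oligo2 and Oligo3, narrow for Aldh7a1 in Oligo2, and no step between Oligo1 and other KO cells.

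Piezo2 followed another pattern. Its level in hippocampus and cortex was 0.020 and 0.030 in WT mouse 1 and 0.067 and 0.042 in WT mouse 4. In KO mouse 3 it was 0.29 and 0.13, and in KO mouse 6 it was 0.24 and 0.17. All KO libraries lay above all WT libraries, and within KO mice the hippocampus lay above the cortex. The mouse means were 0.040 ± 0.021 (SD, n = 2) in WT and 0.21 ± 0.0016 (SD, n = 2) in KO, and the mean normalized UMI was 5.90 times as high in KO mice. By batch the KO to WT ratio of the mean normalized UMI was 16.3 in batch 3, whose WT library was the lowest of the 4, and 4.60, 4.21 and 4.47 in batches 4 to 6. Piezo2 passed the filter on low genes only through KO mice, since on average 4.95% of WT cells held a UMI, under the limit of 5%, against 20.9% of KO cells.

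The distribution of Piezo2 UMIs over cells changed with its mean. Cells with a UMI made up 2.36% to 8.60% of WT libraries and 14.9% to 27.1% of KO libraries, or 1.18% to 3.75% and 6.97% to 16.3% once thinned. Cells with 3 or more UMIs were at most 0.573% of a WT library and 2.23% to 4.19% of KO libraries. A cell with any Piezo2 UMI held at most 1.36 on average in a WT library and 1.63 to 1.86 in KO libraries.

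By cluster, Piezo2 was highest in Oligo1, at 0.53 ± 0.093 over the KO libraries (SD, n = 4), where 49.0% to 55.8% of cells held a UMI. Oligo2 came next at 0.30 ± 0.063, then Oligo4 at 0.19 ± 0.048, and Oligo3 was lowest at 0.039 ± 0.016. This order of the 4 clusters was the same in each of the 4 KO libraries. In WT mice, which had no level for Oligo1, Oligo2 was the highest at 0.13 ± 0.047, while Oligo4 at 0.023 ± 0.017 and Oligo3 at 0.018 ± 0.012 did not differ beyond their spread. The clusters were made from the expression of these same cells, so the order is a description. The 6 Oligo1 cells of WT mouse 4 were too few for a level.

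The Piezo2 difference between genotypes outside Oligo1 was uneven across clusters. KO minus WT was 0.17 in Oligo2 and 0.17 in Oligo4, without overlap of libraries, and 0.021 in Oligo3, where the libraries overlapped. Over Oligo2 to Oligo4 together the mouse means were 0.040 ± 0.021 in WT and 0.12 ± 0.018 in KO (SD, n = 2), and the 4 KO libraries lay above the 4 WT libraries, as they did for 1.46% of genes tested outside Oligo1. KO minus WT within batches was 0.12, 0.047, 0.066 and 0.095.

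Ldlrad4 was higher in KO mice in all clusters and higher again in Oligo1. Its level in hippocampus and cortex was 0.47 and 0.48 in WT mouse 1 and 0.59 and 0.55 in WT mouse 4. In KO mouse 3 it was 0.72 and 0.68, and in KO mouse 6 it was 0.69 and 0.71. The KO libraries lay close together above all WT libraries, and the WT mice stood apart from each other. The mouse means were 0.52 ± 0.067 (SD, n = 2) in WT and 0.70 ± 0.00032 (SD, n = 2) in KO, with 1.40 times the mean normalized UMI in KO mice. Cells with a UMI made up 42.9% to 59.7% of WT libraries and 59.1% to 68.8% of KO libraries, which overlapped, but not once cells were thinned (26.4% to 31.5% and 35.7% to 39.0%).

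In Oligo1 Ldlrad4 reached 0.85 ± 0.044 (SD, n = 4 libraries), above each other cluster of the same KO library in 4 of 4 libraries. Oligo4 followed at 0.78 ± 0.032, then Oligo2 at 0.70 ± 0.022 and Oligo3 at 0.62 ± 0.051, with Oligo2 above Oligo3 in 3 of 4 KO libraries. WT mice had Oligo4 at 0.64 ± 0.10, Oligo2 at 0.57 ± 0.062 and Oligo3 at 0.50 ± 0.047, with Oligo4 above Oligo2 in 3 of 4 libraries and Oligo2 above Oligo3 in 4 of 4. KO minus WT was 0.13 in Oligo2, 0.12 in Oligo3 and 0.14 in Oligo4, and the libraries did not overlap in any of them. In Oligo4 this rested on a narrow gap, since the highest WT library was at 0.754 and the lowest KO library at 0.756, and KO minus WT was 0.20, 0.26, 0.0022 and 0.079 in batches 3 to 6. Within batches it was 0.24, 0.20, 0.096 and 0.16 over all cells and 0.17, 0.17, 0.061 and 0.14 outside Oligo1.

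Dctn4 differed little between genotypes. Its level in hippocampus and cortex was 1.23 and 1.36 in WT mouse 1, 1.29 and 1.24 in WT mouse 4, 1.28 and 1.33 in KO mouse 3, and 1.27 and 1.37 in KO mouse 6. The genotypes overlapped, and KO was higher in 2 of 4 batches and lower in the other two. The mouse means were 1.28 ± 0.023 in WT and 1.31 ± 0.0073 in KO (SD, n = 2), and the mean normalized UMI was 1.04 times as high in KO mice. Outside Oligo1 they were 1.28 ± 0.023 and 1.33 ± 0.00057 with overlapping libraries.

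What set Dctn4 apart was its cluster profile. Oligo2 held 1.71 ± 0.058 in WT and 1.76 ± 0.080 in KO libraries (SD, n = 4), 0.47 to 0.65 above Oligo3 in each of the 8 libraries. Oligo3 lay at 1.19 ± 0.044 in WT and 1.19 ± 0.040 in KO, and Oligo4 at 1.06 ± 0.058 and 1.13 ± 0.043. Oligo1, at 1.22 ± 0.041, stood below Oligo2 by 0.45 to 0.63 in the KO libraries and did not differ from Oligo3 beyond the spread.

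**Figure D2:**
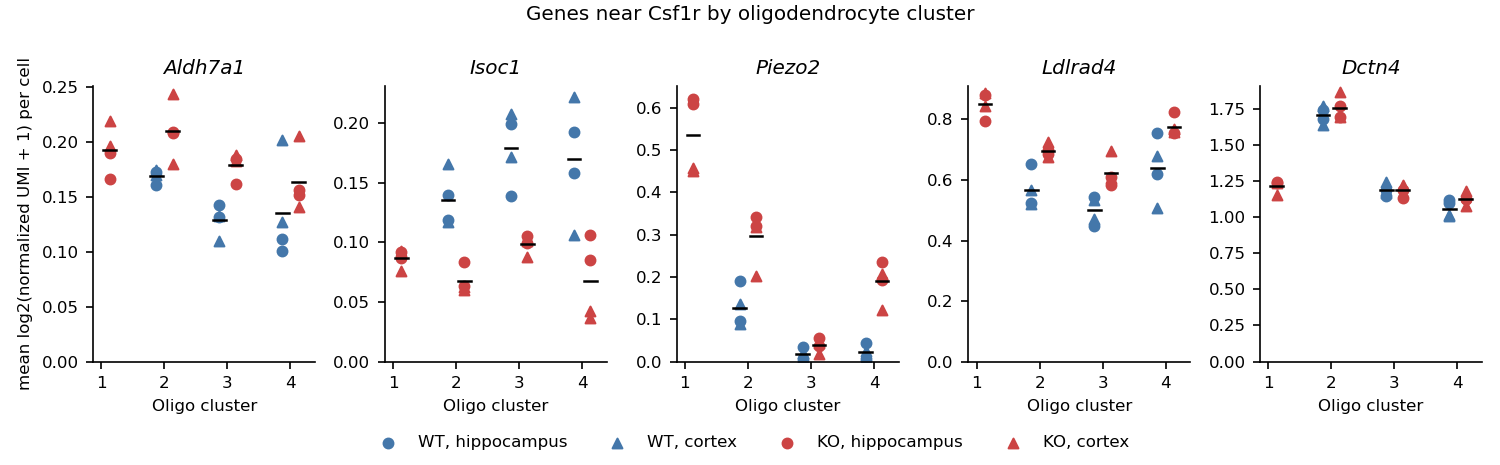
Mean log2(normalized UMI + 1) per cell of each gene in clusters Oligo1 to Oligo4 of each library with at least 20 cells in the cluster. Points are libraries (WT blue, KO red, circles hippocampus, triangles cortex) and black bars their means. Aldh7a1 and Isoc1 step between genotypes within Oligo2 and Oligo3, Piezo2 and Ldlrad4 peak in Oligo1, and Dctn4 peaks in Oligo2 in both genotypes.

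C4b and Serpina3n UMIs were also found outside Oligo1 in both genotypes. Of the KO cells of Oligo2 to Oligo4, 3037 held 0 C4b UMIs and 1267 held 3 or more, against 5516 and 52 of the WT cells. The cells with no UMI of either gene were therefore compared on their own, with the 3 clusters pooled and their mix not matched between genotypes. Among them Isoc1 was at 0.17 ± 0.028 in WT and 0.091 ± 0.0074 in KO mice, and Aldh7a1 at 0.14 ± 0.013 and 0.19 ± 0.013 (SD, n = 2), without overlap of libraries for either. These values were close to those over all cells of the 3 clusters. Piezo2 was at 0.036 ± 0.014 in WT and 0.044 ± 0.0028 in KO mice, with overlapping libraries and KO higher in 2 of 4 batches. Ldlrad4 stood in between, at 0.52 ± 0.067 and 0.60 ± 0.023, with KO higher in 3 of 4 batches and the libraries overlapping. Dctn4 was at 1.27 ± 0.030 and 1.30 ± 0.0059.

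KO cells of Oligo2 to Oligo4, pooled over these clusters, were also split by their number of C4b UMIs. Piezo2 was at 0.053 in cells with 0 C4b UMIs, 0.11 with 1, 0.18 with 2 and 0.29 with 3 or more (means of the 4 KO libraries), and Ldlrad4 at 0.61, 0.66, 0.73 and 0.78. The lowest library in the last class lay above the highest in the first for both genes. Isoc1, at 0.092, 0.081, 0.12 and 0.073, and Aldh7a1, at 0.19, 0.19, 0.17 and 0.19, showed no such order, and Dctn4 moved from 1.31 to 1.37. The median cell held 10971 UMIs in the first class and 11187 in the last. In KO mice C4b UMIs were found in 50.9% of Oligo2, 32.4% of Oligo3 and 60.4% of Oligo4 cells (mouse means). Piezo2 and Ldlrad4 were on average lowest in Oligo3, and how much of their order came from the mix of clusters was not tested. In WT mice only the cells with 0 or 1 C4b UMI were numerous enough in all 4 libraries, and there Piezo2 was at 0.037 and 0.051, with a range over libraries of 0 to 0.12 in the second class. Ldlrad4 in these WT cells was at 0.52 and 0.50, with a range of 0.38 to 0.55 in the second class, and so did not rise with C4b there.

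**Figure D3:**
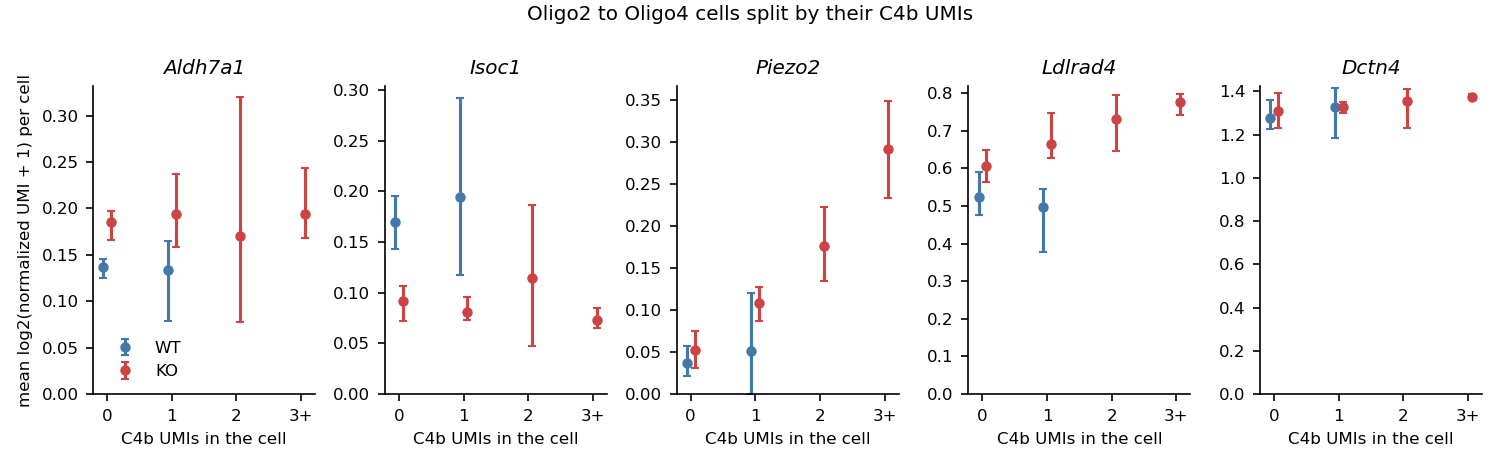
Mean log2(normalized UMI + 1) per cell of each gene in pooled Oligo2 to Oligo4 cells, split by the C4b UMIs of the cell (3+ stands for 3 or more). Points are means of 4 libraries (WT blue, KO red) and bars run from the lowest to the highest library; classes in which some library had under 20 cells are not drawn. Piezo2 and Ldlrad4 climb with C4b in KO cells, Isoc1 and Aldh7a1 do not.

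Genes with the most similar profile over the 28 combinations of library and cluster with at least 20 cells, which share libraries and depth, were found for each gene. For Piezo2 they were Aldh1l2, a mitochondrial folate enzyme (Pearson r = 0.95), Masp1, a protease of the lectin complement pathway (0.95), Syne2, a nuclear envelope protein (0.95), Gm45338 (0.95) and Serpina3n (0.94), and C4b ranked 8 of the tested genes at 0.92. For Ldlrad4 they were Vwa1, an extracellular matrix protein (0.88), Stat3, a transcription factor of cytokine signalling (0.87), Ifi27 (0.85), Vwa5a (0.85) and Fam222a (0.83), with C4b at rank 10 and r = 0.82. None of these lies on chromosome 18. Dctn4 was most like Hopx (0.98), Tln2 (0.97), Uchl1 (0.97), Plin3 (0.97) and Cdkn1c (0.96).

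The leading correlations of the other two genes were weaker. Isoc1 was most like Enho (r = 0.81), Seh1l (0.79), Lsm14b (0.76), Slc16a1 (0.74) and Smco3 (0.73), and Seh1l, a nuclear pore subunit, lies in the same 10 Mb window. Aldh7a1 was most like Vps29 (0.79), Anapc2 (0.79), Itm2b (0.78), Rpp30 (0.78) and Ptrh2 (0.78). C4b correlated with Isoc1 at -0.54, rank 9144 of 9257, with Aldh7a1 at 0.44 and with Dctn4 at -0.083. Among the 5 genes themselves, r was 0.74 between Piezo2 and Ldlrad4, -0.69 between Isoc1 and Ldlrad4, -0.53 between Isoc1 and either of Piezo2 and Aldh7a1, and -0.13 to 0.46 for the other pairs. The profiles mix WT and KO libraries, so all these correlations can in part reflect the genotype contrast that chose the genes.

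Along the chromosome, the genotype differences of the 61 tested genes near Csf1r were for the most part small. The median absolute KO minus WT difference was 0.013 in the window, 0.012 in it without the 5 genes, 0.011 over the 182 tested genes elsewhere on the chromosome and 0.011 over all 9257 tested genes. Ldlrad4 and Piezo2 had the largest absolute differences of the window over all oligodendrocytes, and ranked 78 and 84 among all tested genes. Isoc1 ranked 397, Aldh7a1 996 and Dctn4 1664.

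Counted by libraries, 5 of the 61 genes had all KO above all WT libraries, 8.20% against 2.78% of all tested genes, and 2 had all below, 3.28% against 1.35%. Besides the genes described above these were Napg, Zfp608 and 4930503L19Rik, which are named here after their values were seen. Napg, a fusion factor of vesicle traffic whose gene is next to Piezo2, was at 0.43 in WT and 0.45 in KO, the transcription factor gene Zfp608 at 0.46 and 0.35, and 4930503L19Rik at 0.062 and 0.086. On the rest of the chromosome 3 of 182 genes had all KO above and 6 all below the WT libraries (1.65% and 3.30%). Because the 5 genes entered through this contrast, the higher share in the window is not read as a result.

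The direct neighbours of the 5 genes among tested genes were picked by position, and whether their differences departed from those of the 5 was not tested. Gramd3 and Phax beside Aldh7a1 had KO minus WT differences of 0.0090 ± 0.022 and 0.034 ± 0.021 (SE), Txnl1 beside Piezo2 had 0.039 ± 0.032, and Cep192 and Fam210a beside Ldlrad4 had 0.0033 ± 0.011 and -0.025 ± 0.012. Fbn2 beside Isoc1 was at -0.055 ± 0.034, and Rbm22 beside Dctn4 at 0.0026 ± 0.029. These 7 overlapped between genotypes, while Napg, the other neighbour of Piezo2, at 0.018 ± 0.011, did not. Fam210a had the opposite sign to Ldlrad4, and the differences of Gramd3, Cep192 and Rbm22 were smaller than their errors. Isoc1 and Dctn4 are also direct neighbours among tested genes and had opposite signs, at -0.083 and 0.034. At the border of the window, Srfbp1 (8.61 Mb below Csf1r) and Mbd2 (9.44 Mb above) were the outermost tested genes inside, with differences of -0.013 and 0.0054. Hsd17b4 (10.9 Mb below) and Dcc (10.1 Mb above) were the first outside, with 0.011 and 0.0027.

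**Figure D4:**
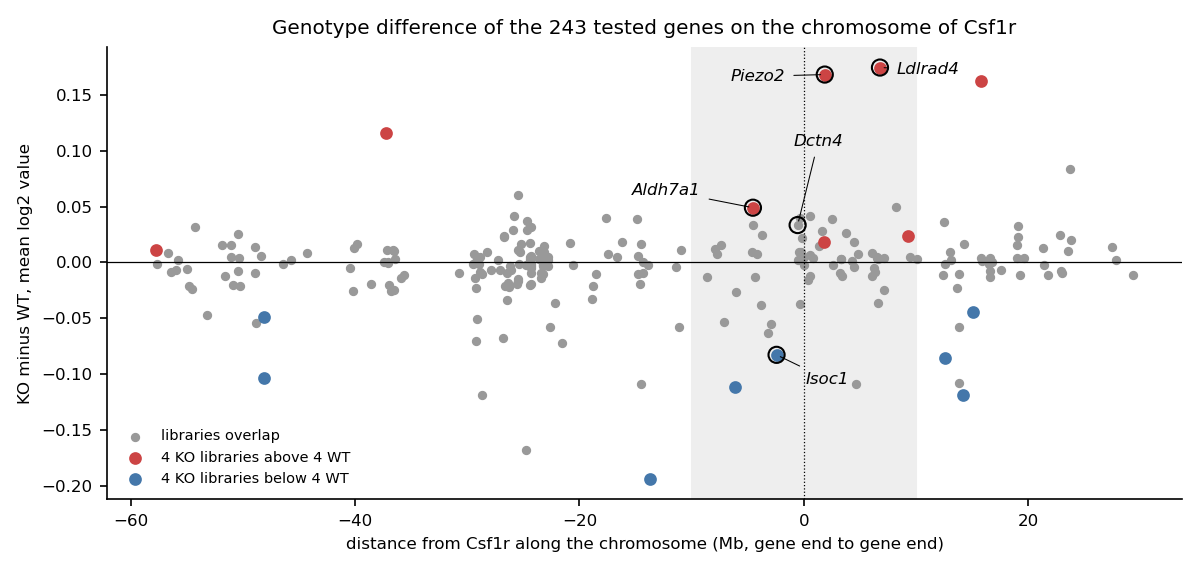
KO minus WT difference of the mean log2 value over all oligodendrocytes, for the 243 tested genes of chromosome 18, against the distance from Csf1r in Mb. Shading marks 10 Mb on either side, red and blue points are genes whose 4 KO libraries lay all above or all below the 4 WT libraries, grey points overlapped, and black circles mark the 5 genes. Red and blue points occur within and outside the window.

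Genes that work with the 5 were taken from lists written with earlier results of these data known. Of the mechanosensitive channels, 5 of 11 were tested and 0 passed an adjusted p of 0.05 (limma), with a median KO minus WT difference of 0.018 against 0.0013 over all tested genes. Piezo1, the paralog of Piezo2, was near 0 in both genotypes at 0.00085 in WT and 0.00029 in KO. Tmem63a, a mechanically gated channel of oligodendrocytes, was at 1.48 in WT and 1.41 in KO with overlapping libraries. Of the TGF-beta receptors, SMADs and their regulators 12 of 18 were tested and 0 passed, with a median of 0.0014. In that list the KO libraries were all above WT for Ldlrad4 alone and all below for Smad2, a signal transducer (0.13 in WT, 0.088 in KO), and Smad7, an inhibitor of the pathway (2.25 and 2.13), beside 2.78% above and 1.35% below over all tested genes. Both SMAD genes are also on chromosome 18, 15.1 and 14.2 Mb above Csf1r, outside the window. Positions of the other genes in that list are not given here, and these genes are not to be taken as lying away from Csf1r. Among them Smad4 (0.16 in WT, 0.20 in KO) and Nedd4l (0.10 and 0.13) were higher in KO with overlapping libraries.

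Of the lysine breakdown genes 9 of 10 were in the table, 5 were tested and 0 passed. Apart from Aldh7a1, none had separate genotypes, Gcdh being at 0.13 in WT and 0.14 in KO and Dld at 0.37 and 0.38. Of the aldehyde dehydrogenases 11 of 14 were tested and 0 passed, with a median of 0.0022. Here Aldh1l2, at 0.087 in WT and 0.24 in KO, was above in all KO libraries and Aldh2, the mitochondrial enzyme for acetaldehyde, was below in all (0.26 and 0.14), with Aldh7a1 the other gene above and the same 2.78% and 1.35% as background. The paralogs of Isoc1, Isoc2a and Isoc2b, lay under the filter, at 0.014 and 0.015 in WT and 0.015 and 0.016 in KO.

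All 12 dynactin subunits were tested, and 0 passed, with overlapping genotypes for each of them and a median difference of 0.0095. Dctn1, the largest subunit, was at 1.14 in WT and 1.11 in KO, Dctn2 at 1.39 and 1.42, and Dctn3 at 1.12 and 1.17. Of the cytoplasmic dynein 1 subunits 8 of 10 were tested and 0 passed, with 3 higher and 5 lower in KO and a median of -0.014. Dynll1 had overlapping libraries, at 1.51 in WT and 1.77 in KO. Its hippocampus and cortex were at 2.01 and 1.91 in KO mouse 3, but at 1.58 and 1.56 in KO mouse 6. The intermediate chain gene Dync1i2 was at 1.67 and 1.66.

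Tissue was not part of the choice of genes and was tested over the 8 libraries with genotype as a covariate. No gene passed an adjusted p of 0.05 (limma, 0 of 9257, 0%), 490 (5.29%, with 1.32% higher and 3.98% lower in hippocampus) had an unadjusted p under 0.05, and edgeR called 0. Each mouse gave both tissues, and with the mouse as a fixed block 1450 genes had an unadjusted p under 0.05 and 0 passed (limma). Piezo2 had the largest difference of the 5 genes, hippocampus minus cortex 0.062 ± 0.027 (SE), with a limma adjusted p of 0.933 and the hippocampus higher in 3 of 4 mice. In Oligo2 to Oligo4 cells alone the Piezo2 difference was 0.019 ± 0.017. Dctn4 was at -0.060 ± 0.030, with a limma adjusted p of 0.980 and the hippocampus lower in 3 of 4 mice. The differences of Ldlrad4, Aldh7a1 and Isoc1 were 0.0076 ± 0.029, -0.0047 ± 0.010 and -0.00086 ± 0.015, each smaller than its error.

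Whether KO and WT mice differed by another amount in hippocampus than in cortex was tested on 1 value per mouse, its hippocampus level minus its cortex level. No gene passed (limma, 0 of 9257, 0%), 574 (6.2%, with 1.15% higher and 5.06% lower) had an unadjusted p under 0.05, and edgeR called 1, the protease gene Klk6. For Piezo2 these differences were -0.010 and 0.026 in WT mice 1 and 4 and 0.16 and 0.073 in KO mice 3 and 6, so that both KO mice lay above both WT mice. The interaction was 0.11 ± 0.035 (SE), with a limma adjusted p of 0.799. Among cells outside Oligo1, a cluster larger in the hippocampus of KO mice, it was 0.023 ± 0.030. The interactions of Isoc1 (0.027 ± 0.013), Aldh7a1 (-0.023 ± 0.015), Ldlrad4 (-0.0092 ± 0.030) and Dctn4 (-0.036 ± 0.070) had limma adjusted p-values of 0.818, 0.850, 0.975 and 0.948.

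Microglial RNA moved with genotype in these libraries. The 11 microglial markers together made up 0.654 to 1.55 of every 10000 UMIs in WT libraries and 0.165 to 0.220 in KO libraries, and Tmem119 was at 0 in all KO libraries. Cells with a UMI of any of them were 53.0% to 76.4% of WT libraries and 15.4% to 25.7% of KO libraries. Among cells without such a UMI, KO minus WT was 0.17 for Piezo2, 0.18 for Ldlrad4, 0.047 for Aldh7a1, -0.072 for Isoc1 and 0.033 for Dctn4, beside 0.17, 0.17, 0.049, -0.083 and 0.034 over all cells. Astrocyte markers were at 2.22 to 2.72 in WT and 1.78 to 2.63 in KO libraries, all 6 of them present in each library. Progenitor, neuron, endothelial, and mural and fibroblast lists stayed under 0.43 per 10000 UMIs in every library, and erythrocyte genes ranged from 0.282 to 9.33 in WT and from 0.772 to 8.14 in KO. The part of these other lists in the results was not tested.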

How the data were processed

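The authors aligned 10x Genomics reads with Cell Ranger 5.0.0 to mm10, per the labels and the study's methods, kept cells with at least 5000 UMIs and at most 10% mitochondrial reads, selected oligodendrocytes and clustered them. The deposited matrix holds log2(UMI / size factor + 1), and the deposited cell table holds total UMI counts, size factors (a ratio to the average cell), the percent of mitochondrial reads, batch and cluster. UMI counts were recovered from the deposited log2 values and size factors: all 42420937 values above 0 gave whole counts within 0.001, and totals equalled the deposited ones in 11264 of 12581 cells. No per-sample column was left unused.

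Gene positions came from GENCODE M21 (GRCm38), which held 18533 of the 18833 symbols. A gene counted as near Csf1r if its whole span lay within 10 Mb. Values of cells were averaged per library, and per mouse with both tissues weighted equally. The genes whose share of cells with any UMI averaged 5% or more over the groups were tested with limma 3.58.1 in R 4.3.3, and alternatively with edgeR 4.0.16 on summed UMIs, at a Benjamini-Hochberg adjusted p of 0.05. The p-values of the genotype comparisons and of the interaction measure spread between 2 mice a genotype. Those of the main tissue comparison measure spread between libraries and ignore that a mouse gave both tissues. Both libraries of a number come from 1 animal, and their deviations from the group mean correlated over genes (r = 0.843 in WT, 0.853 in KO). The fits were tested on simulated data. Intervals of shares are exact binomial (Clopper-Pearson, 95%), the limit beside a count of 0 is 3 counts of the total, and thinned shares are expected values of drawing 5000 UMIs from each cell without replacement, which left out 0 cells.

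The 5 genes and all gene lists were chosen with earlier results of these data known. Named beside the 5 genes are Csf1r, C4b, Serpina3n, genes of the window past the threshold (none), the tested genes nearest to the 10 Mb limit, for each of the 5 the 5 genes of highest Pearson correlation, and members of the pathway lists. Outside that rule, direct neighbours were picked by position, and Napg, Zfp608, 4930503L19Rik, 9330117O12Rik and Klk6 after their values were seen. Tmem119 is named as the microglial marker at 0 in every KO library. The study calls batch 6 (cortex of mice 4 and 6) poorer in quality. It was kept, and values are given per batch. Doublets were not called here. The summed level of the oligodendrocyte marker list is not reported here.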

Additional observations from a re-analysis of the deposited data

Results flagged for a closer look

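The Aldh7a1 level in the cortex of KO mouse 3, at 0.208, lay far from the other 3 KO libraries, which lay at 0.176 to 0.180. The gap exceeded the 95% critical value of Dixon's test for 4 samples. This was the 1 group flagged of the 10 examined (5 genes in 2 genotypes), and chance flags about 1 in 20 groups of independent samples. The 4 KO libraries come from 2 mice and are not independent, so the critical value and that rate hold only roughly.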

How the results depend on the processing

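None of the genes called under any setting was 1 of the 5 genes. Between genotypes over all cells 0 genes passed, against 2 on log2(mean normalized UMI + 0.1), 1 without a filter on low genes, 8 with edgeR and 1 with the mouse as a random replicate block. Outside Oligo1 the counts were 2, 1, 3 and 3 under those settings. The genotype by tissue interaction gave 1 gene with edgeR. The cause of these changes was not tested. With the mouse as a fixed replicate block the tissue comparison still called 0 genes, and no other count changed, including the fits within Oligo2, Oligo3 and Oligo4 alone, which were added after the data were seen. Within 5 and 20 Mb of Csf1r, and with edgeR within 10 Mb, 0 genes passed.

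The difference between genotypes in the share of cells with a UMI shrank with thinning from 5.98 to 2.79 percentage points for Aldh7a1, from -8.93 to -4.65 for Isoc1 and from 15.9 to 9.29 for Piezo2. It was 12.1 and 8.88 for Ldlrad4 and 1.15 and 1.23 for Dctn4. Each of the 5 genotype differences kept its direction in all 15 alternatives over all cells. These refit, on the same mice, the contrast that chose the genes, so the kept direction is not read as a result. Leaving out each mouse gave 0.041 to 0.057 for Aldh7a1, -0.105 to -0.061 for Isoc1, 0.154 to 0.183 for Piezo2, 0.128 to 0.222 for Ldlrad4 and 0.018 to 0.049 for Dctn4, whose lowest value came without WT mouse 4. Piezo2 could not be fitted in cells without C4b and Serpina3n UMIs, where it fell under the filter. Adjusted p-values of the 5 genes were at least 0.381 for tissue and at least 0.429 for the interaction under each alternative. With 2 mice a genotype, a difference must be large against the spread to pass.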
